A study of Mus musculus with 4 samples.

Results

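The regions described here are short stretches of the mouse genome that were rich in tags of Ldb1 and of Tal1 but poor in tags of Gata2, in chromatin from lineage-negative bone marrow cells. They were chosen from the tag counts themselves. Each occupied position on a strand counted as 1 tag, tags were summed in bins of 500 bp on chromosomes 1 to 19, and a bin was kept with at least 8 Ldb1, at least 14 Tal1, at most 4 Gata2 and at most 3 IgG tags. This left 2093 bins, which gave 1972 regions after adjacent bins were joined, out of 4299458 bins with a tag in any library. The cells were fresh mouse bone marrow depleted of Lin+ (lineage-marked) cells with magnetic beads, a fraction enriched for haematopoietic progenitors, and all 4 groups share this source, without a treatment or an engineered allele in the labels. The labels name no strain, age or sex of the mice. The groups differ by antibody alone: anti-Ldb1, anti-Scl/Tal1, anti-Gata2 and control IgG, with 1 library each. The cells are a mixture, so a bin with 2 factors need not hold both in the same cell, and fewer cells with a bound site cannot be told apart from weaker binding in each cell.

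Ldb1 (LIM domain binding protein 1) does not bind DNA itself. It forms multimers and, through LIM-only proteins such as Lmo2, is joined to DNA-bound factors and can bring distant elements together. Tal1, also called Scl, is a basic helix-loop-helix factor that pairs with E proteins on E-box sequences and is needed for blood stem cell formation. Gata2 is a zinc finger factor that reads GATA sequences, acts in stem and progenitor cells and is often found with Tal1, Lmo2 and Ldb1 in 1 complex. The series addressed the part of Ldb1 in the maintenance of blood stem cells, and the regions below are those where the first 2 proteins were dense and the third was not.

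The autosomes held 3866477 Ldb1, 8701045 Tal1, 5785973 Gata2 and 3401045 IgG tags when each position and strand counted once. A bin held a mean of 0.899 Ldb1, 2.02 Tal1, 1.35 Gata2 and 0.791 IgG tags. The Ldb1 minimum thus stood at 8.90 times its library mean and the Tal1 minimum at 6.92 times. The Gata2 maximum stood at 2.97 times and that of IgG at 3.79 times, so a bin called low in Gata2 can still hold more than the genome average. No antibody has a replicate library, so no p-value is given. Intervals are 95% and cover counting error only, and neighbouring bins and PCR copies are not independent. All positions are in build mm8 and count from 1. Genes and sequence are not given for the regions, since no mm8 annotation or genome was used here.

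Having few Gata2 tags was the usual state of the genome, whereas having many Ldb1 and Tal1 tags was rare. Of all bins, 96.9% had at most 4 Gata2 tags and 98.6% at most 3 IgG tags, while 0.297% had at least 8 Ldb1 tags and 0.651% at least 14 Tal1 tags. At least 10 Gata2 tags were found in 0.446% of bins. All 4 limits together were met by 0.0487% of bins. Without the Gata2 limit 9301 bins were left, or 0.216%. Among these, 22.5% had at most 4 Gata2 tags and 47.9% had at least 10. These shares follow from the limits and are a description.

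The Gata2 limit did not fall in a gap. In the 9301 bins past the other 3 limits, the number of Gata2 tags had a single broad peak with its most frequent value at 5, a median of 9 and a tail that reached 289. Just inside the limit, 583 bins had 4 tags, and just outside it, 593 had 5. The chosen bins are the lower end of a continuous range. For Ldb1, 396 bins stood at 8 tags inside the limit and 529 at 7 outside. For Tal1 these were 62 bins at 14 and 65 at 13, and for IgG 84 bins at 3 and 21 at 4.

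**Figure D1:**
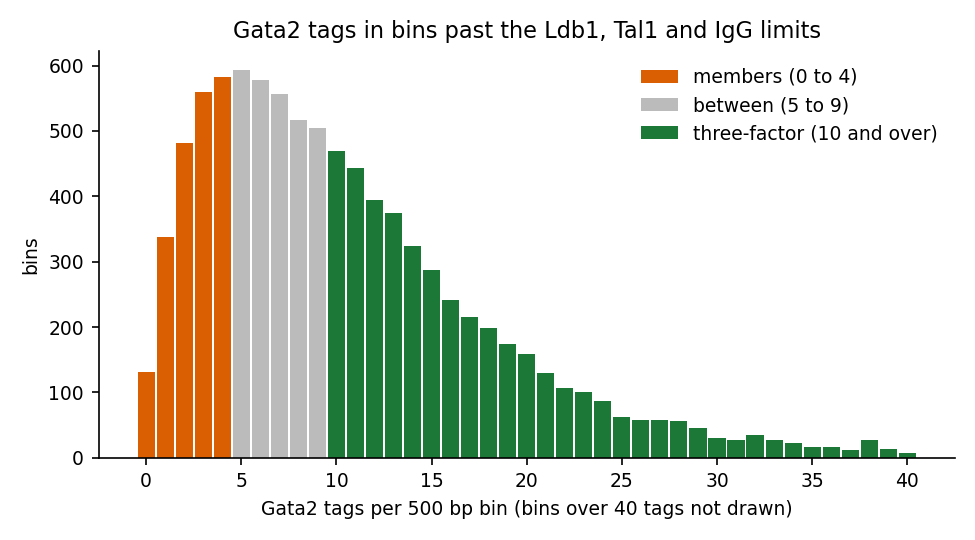
Bars give the number of 500 bp bins (vertical axis) with each number of Gata2 tags (horizontal axis), among the 9301 bins past the Ldb1, Tal1 and IgG limits. The counts run from 131 bins without a Gata2 tag through a peak at 5 tags to a long tail, with bins over 40 tags not drawn and no dip between the chosen bins (0 to 4) and those beside them (5 to 9).

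Within the regions, tags were counted in the best bin, the one in which the lower of Ldb1 over 8 and Tal1 over 14 was largest. Ldb1 ran from 8 to 140 tags with a median of 11, and Tal1 from 14 to 174 with a median of 34. The mean was 16.5 times the library mean for Ldb1 and 19.8 times for Tal1. Most regions therefore stood close to the Ldb1 limit, while many were well above that of Tal1.

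Gata2 was low but seldom absent. In the best bin 115 regions had no Gata2 tag, 317 had 1, 445 had 2, 524 had 3 and 571 had 4. The mean of 2.57 Gata2 tags was 1.91 times the library mean, against 0.715 IgG tags, or 0.903 times the library mean. No IgG tag was found in 992 regions, 632 had 1, 267 had 2 and 81 had 3. By a one-sided limit of 95%, a count of 0 allows up to 3 tags, which for Gata2 is 2.23 times the library mean, so the regions without a tag are not distinguishable at this depth from regions at the genome average.

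Ldb1 and Tal1 varied together only in part. The number of Ldb1 tags per Tal1 tag ran from 0.0909 to 1.79 with a median of 0.381, where the library means give 0.444, and the middle 80% of regions lay between 0.20 and 0.667. Only 29 of the 1972 regions had more Ldb1 than Tal1 tags. Across regions, Spearman's rho between Ldb1 and Tal1 tags in the best bin was 0.508 (n = 1972 regions of the same 2 libraries, both cut off from below). Gata2 tags were nearly unrelated to Ldb1 (0.0162) and Tal1 (0.0989) within the narrow range the limit allows.

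The share of low-Gata2 bins was not the same at all levels of the other 2 factors. Among bins past the Ldb1, Tal1 and IgG limits, 19.5% (17.8 to 21.4) of those with 14 to 19 Tal1 tags had at most 4 Gata2 tags. The share was 22.4% (20.7 to 24.2) at 20 to 29 Tal1 tags, 31.3% (29.3 to 33.2) at 30 to 49 and 17.97% (16.6 to 19.4) at 50 and over. It thus peaked in the middle of the Tal1 range, and the interval there lies above those of the other 3 classes. By Ldb1 it had its highest value of 26.1% (24.4 to 27.8) at 8 to 9 tags and its lowest of 14.1% (12.1 to 16.4) at 30 and over. Both factors were used to choose the bins, so these shares describe the choice.

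Regions were ranked by the lower of Ldb1 over 8 and Tal1 over 14, and the first lay on chromosome 11 from 102179501 to 102180500. Its best bin held 140 Ldb1, 159 Tal1, 3 Gata2 and 0 IgG tags, and no other member had more Ldb1 tags. The second, on chromosome 16 from 8602001 to 8603000, had 135 Ldb1, 124 Tal1, 2 Gata2 and 2 IgG tags. Here Ldb1 outnumbered Tal1 although its library was the smaller. Rank 3 was a bin of chromosome 15, from 27441501 to 27442000, that held 85 Ldb1, 107 Tal1, 2 Gata2 and 0 IgG tags. In all 3, the Ldb1 and Tal1 summits (the position with most tags within 50 bp on either side) were 5, 8 and 23 bp apart, and the nearest other bin with at least 10 Gata2 tags and at most 3 IgG tags was 10.5, 12 and 27 kb away.

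The next 7 had 57 to 83 Ldb1 and 91 to 105 Tal1 tags. A region of chromosome 15 from 99543501 to 99544000 had 68 Ldb1, 105 Tal1 and 4 Gata2 tags. A region of chromosome 5 from 140287001 to 140287500 had 69, 100 and 4, and another of chromosome 13 from 24167001 to 24167500 had 71, 93 and 4. A second region of chromosome 11, from 102712001 to 102712500, had 64, 92 and 2. Of the first 10, 6 stood at the Gata2 limit of 4 tags.

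Counted in the 500 bp around the position with most Ldb1 and Tal1 tags, 3 of the first 10 exceeded 4 Gata2 tags. The region of chromosome 17 from 62997501 to 62998000 had 57 Ldb1, 97 Tal1 and 4 Gata2 tags in its bin, but 106, 192 and 14 in that window. By that count it is not low in Gata2, and the bin beside it had at least 10 Gata2 tags. The chromosome 5 region went from 69 Ldb1, 100 Tal1 and 4 Gata2 tags to 128, 168 and 6, and rank 3 on chromosome 15 went from 85, 107 and 2 to 83, 103 and 5. The remaining 2, on chromosome 8 from 87861001 to 87861500 and from 24711501 to 24712000, kept 4 Gata2 tags in both counts, beside 80 and 83 Ldb1 and 96 and 91 Tal1 tags.

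**Figure D2:**
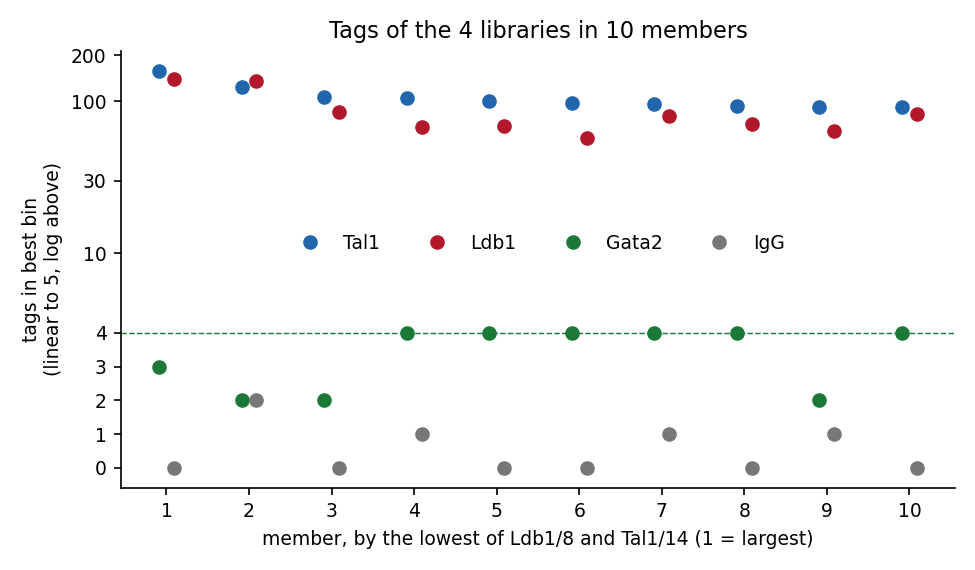
Points give the tags of each library in the best bin (vertical axis, linear up to 5 tags and logarithmic above) of the 10 regions with the largest lowest value of Ldb1 and Tal1 (horizontal axis, in that order). Ldb1 and Tal1 lie between 57 and 159 tags in every region, Gata2 lies at 2 to 4 tags under the dashed limit line, and IgG at 0 to 2.

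Regions without any Gata2 tag in their bins numbered 106, or 5.38% (4.42 to 6.46). The one with most Ldb1 tags lay on chromosome 1 from 183053001 to 183053500 and had 53 Ldb1, 75 Tal1, 0 Gata2 and 1 IgG tag. There was also no Gata2 tag in the 500 bp on either side of it, where 3 Ldb1 and 13 Tal1 tags lay. The second, on chromosome 10 from 79484001 to 79484500, had 50 Ldb1 and 74 Tal1 tags with 1 Gata2 tag beside it. The third, on chromosome 11 from 45921001 to 45921500, had 31 Ldb1 and 62 Tal1 tags, with 2 Gata2 tags beside it. Each of these 3 kept 0 Gata2 tags when the window was placed around the centre. In the other 2, both on chromosome 8, from 108723001 to 108723500 and from 97405001 to 97405500, 30 and 28 Ldb1 tags and 36 and 49 Tal1 tags were found.

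Tal1 reached its largest count on chromosome 2 from 93257001 to 93257500, with 174 Tal1, 51 Ldb1, 3 Gata2 and 0 IgG tags, and next on chromosome 15 from 89043501 to 89044000, with 161 Tal1, 42 Ldb1, 2 Gata2 and 0 IgG tags. Ldb1 per Tal1 tag was highest on chromosome 13 from 52843501 to 52844000, at 1.79, with 43 Ldb1, 24 Tal1 and 3 Gata2 tags. On chromosome 7 from 135654501 to 135655000 there were 32 Ldb1, 18 Tal1 and 1 Gata2 tag, and on chromosome 15 from 75727001 to 75727500 there were 48, 32 and 1. Members with the same low Gata2 count thus ranged from sites with several times more Tal1 than Ldb1 tags to sites where Ldb1 led.

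Most regions were a single bin wide. Of the 1972, 1855 or 94.1% (92.9 to 95.1) had 1 bin, 114 had 2, 2 had 3 and 1 had 4. Regions with many tags of all 3 factors were used for comparison. They passed the same Ldb1, Tal1 and IgG limits with at least 10 Gata2 tags, and 4459 such bins gave 4044 regions. Of these three-factor regions 90.7% (89.8 to 91.6) had 1 bin, 3.34 percentage points fewer (1.92 to 4.68).

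The widest region spanned 2000 bp of chromosome 5 from 135204001 to 135206000. Its 4 bins held 26, 11, 18 and 19 Ldb1 tags, 89, 50, 48 and 83 Tal1 tags, and 4, 3, 0 and 2 Gata2 tags. Tal1 was thus high at each end and lower between, while Ldb1 was highest in the first bin and lowest in the second. The bin just before it had 65 Ldb1 and 156 Tal1 tags with 7 Gata2 tags, which kept it out. On chromosome 6 a region from 30097001 to 30098500 had 86, 8 and 14 Ldb1 tags and 80, 32 and 19 Tal1 tags in its 3 bins, with 2 Gata2 tags in each. The other region of 3 bins, on chromosome 6 from 135289001 to 135290500, stayed at 8 to 10 Ldb1 and 18 to 42 Tal1 tags.

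A fixed grid of bins divides sites that lie near a border, so each region was counted again in 500 bp around its centre, the position with most Ldb1 and Tal1 tags within 50 bp on either side. The centre was under 125 bp from an edge of the region in 922 of 1972 regions, or 46.8% (44.5 to 48.99). After recentring the median was 13 Ldb1, 40 Tal1, 3 Gata2 and 0 IgG tags. More than 4 Gata2 tags were then found in 424 regions, or 21.5% (19.7 to 23.4), of which 353 had 5 to 9 and 71 had at least 10, with a maximum of 26. The share was 36.8% (33.6 to 39.97) where the centre was under 125 bp from an edge and 8.10% (6.52 to 9.91) elsewhere. All 4 limits held in 1461 regions, or 74.1% (72.1 to 76.0). With bins that start at position 250, 1948 regions met the limits and 1152 of the 1972 regions, or 58.4%, overlapped one of them.

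Around the centre the tag densities of Ldb1 and Tal1 formed a narrow peak, summed over all regions. Within 100 bp of the centre Ldb1 stood at 23.2 times and Tal1 at 24.0 times the density of the flanks 3 to 5 kb from the region. At 300 to 500 bp these had come down to 2.10 and 2.33 times. Gata2 also had a peak at the centre, of 2.54 times the flanks within 100 bp. IgG was at 1.06 times. In three-factor regions Gata2 stood at 15.4 times in the same window, Ldb1 at 28.0, Tal1 at 26.1 and IgG at 1.44, so the 2 sets stood closer in Ldb1 and Tal1 than in Gata2. The Ldb1 and Tal1 peaks, and the high Gata2 of three-factor regions, follow from the choice of bins and of the centre. The centre was placed without Gata2 tags, and the Gata2 limit lowered Gata2 in the bins of the low-Gata2 regions. The window around the centre can reach past those bins, where the limit did not apply. The centre lay under 125 bp from an edge in 922 of the 1972 regions. In 500 bp around the centre, 36.8% of these had over 4 Gata2 tags, against 8.10% of the others. The part of tags outside the bins in the Gata2 peak was not tested. All of these values are given without a test.

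**Figure D3:**
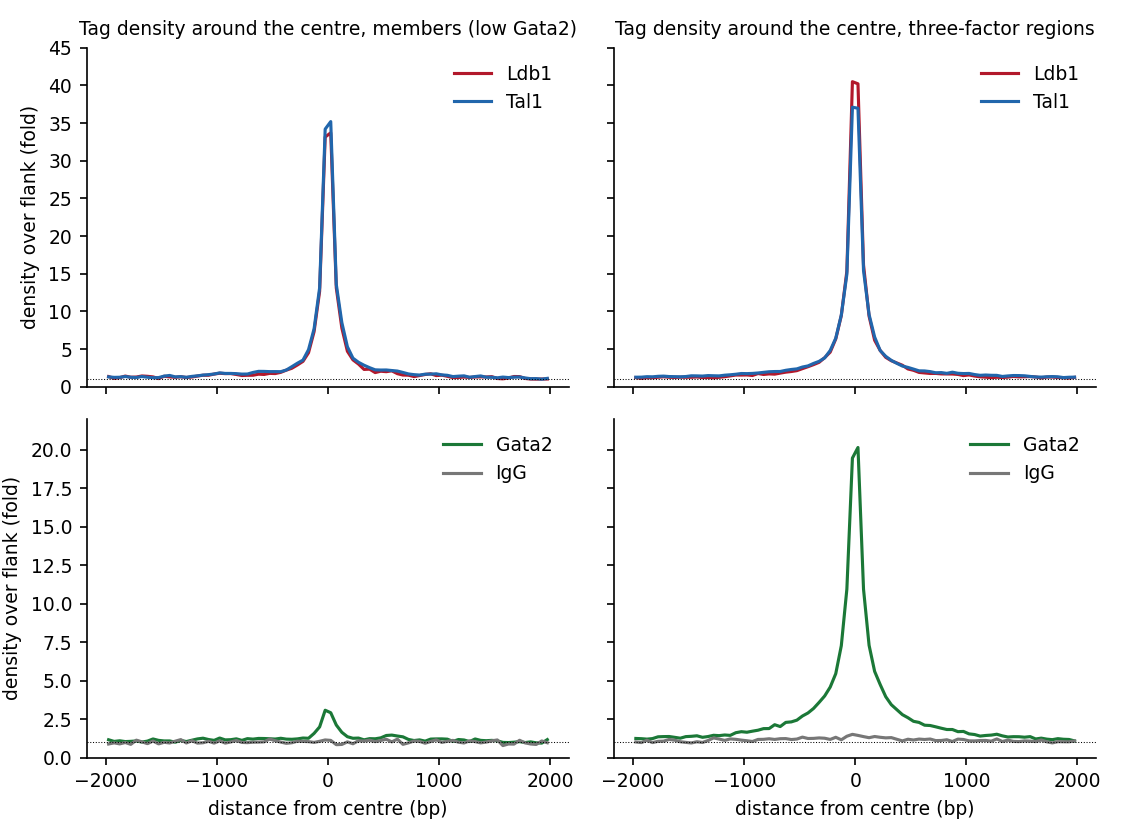
Lines give tag density in steps of 50 bp around the centre (horizontal axis, bp) over the density 3 to 5 kb from the region (vertical axis, fold), for the regions low in Gata2 on the left and three-factor regions on the right. Ldb1 and Tal1 peak at 33.7 and 35.2 times in the low-Gata2 regions and Gata2 at 3.09 times, while in three-factor regions Gata2 peaks at 20.1 times.

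The 500 bp on each side of a region were not counted by the rule, apart from the joining of bins that met it, and give a measure of Gata2 outside the chosen bins. Here Gata2 was 1.52 times as dense as in the flanks (1.49 to 1.56), from 11634 tags beside the regions and 30565 in the flanks. Three-factor regions had 2.56 times (2.53 to 2.60), so their value was 1.68 times that of the low-Gata2 regions (1.64 to 1.73). With the centre at least 125 bp from an edge in both sets, the low-Gata2 regions had only 1.23 times (1.19 to 1.27). The ratio between the sets was then 1.97 (1.90 to 2.04). These values are not independent of the rule, since a peak near an edge adds tags on both sides of it. The centre lay under 125 bp from an edge in 922 of the 1972 low-Gata2 regions. At three-factor regions Gata2 was still 3.05 times its flanks at 300 to 500 bp from the centre. The lower Gata2 density beside the low-Gata2 regions is therefore a description. IgG beside the regions was at 1.05 times its flanks (1.01 to 1.10) and at 1.25 times (1.22 to 1.28) for three-factor regions; the part of this difference in the Gata2 result was not tested. In the flanks Gata2 itself was alike, at 1.94 tags per 500 bp for low-Gata2 and 2.06 for three-factor regions, which is 1.44 and 1.53 times the library mean.

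The Gata2 difference beside the regions was present at every level of Tal1. With 14 to 19 Tal1 tags in the best bin, the low-Gata2 regions had 1.79 times (1.70 to 1.88) and three-factor regions 3.18 times (3.09 to 3.26) their flanks. With 50 and over, the values were 1.40 times (1.34 to 1.46) and 1.98 times (1.94 to 2.02). The ratio between the 2 sets was 1.78, 1.87, 1.78 and 1.41 over the 4 Tal1 classes.

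Gata2 beside the regions also differed among the members. It was 1.47 times the flanks (1.33 to 1.62) at the 115 regions with 0 Gata2 tags in the best bin, 1.24 times (1.17 to 1.31) at those with 1, 1.47 (1.40 to 1.54) at 2, 1.54 (1.47 to 1.60) at 3 and 1.72 (1.66 to 1.79) at 4. From 1 to 4 tags the density outside the bin went with the count inside it, and the regions with 0 tags stood apart from this order. At regions past the same limits with 5 to 9 Gata2 tags it was 2.26 times (2.23 to 2.30). Tal1 regions with at most 2 Ldb1 and 4 Gata2 tags had 1.49 times (1.47 to 1.52), which the interval of the low-Gata2 regions overlaps, and Tal1 and Gata2 regions with at most 2 Ldb1 tags had 2.57 times (2.51 to 2.63).

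**Figure D4:**
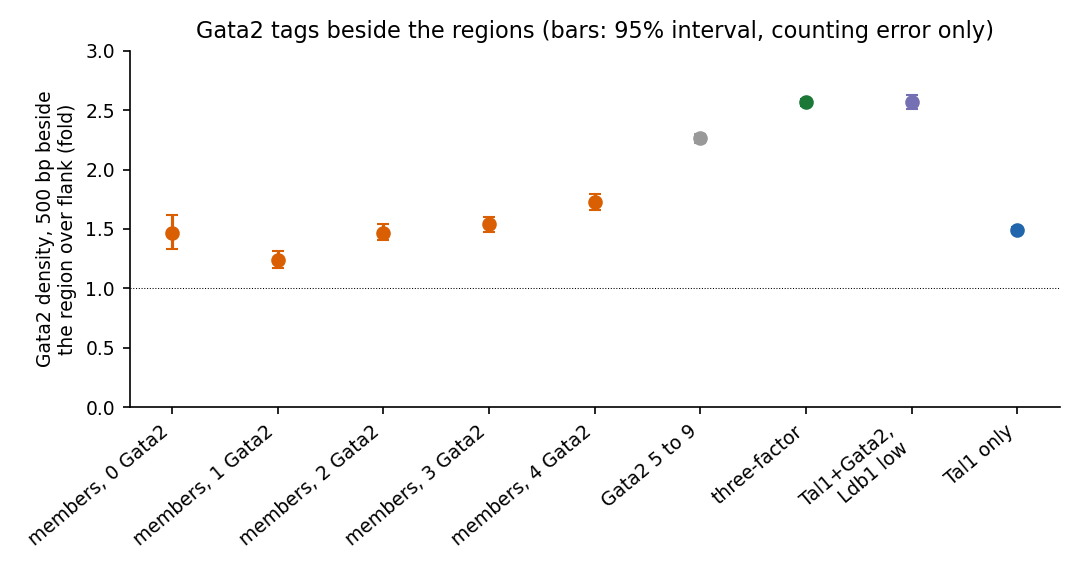
Points give Gata2 density in the 500 bp on each side of a region over its flanks (vertical axis, fold), with 95% intervals for counting error, for low-Gata2 regions by their number of Gata2 tags and for 4 comparison sets (horizontal axis). The 5 groups of low-Gata2 regions lie between 1.24 and 1.72 times, under the 2.56 times of three-factor regions and beside the 1.49 times of regions with Tal1 alone.

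For Ldb1 and Tal1 the comparison beside the regions depended on neighbouring bins. Over all low-Gata2 regions Ldb1 was 2.95 times (2.90 to 3.01) and Tal1 3.26 times (3.22 to 3.30) its flanks, against 2.50 (2.46 to 2.53) and 2.78 (2.76 to 2.81) at three-factor regions. Without regions that had an adjacent bin past the Ldb1, Tal1 and IgG limits the order turned, to 1.42 (1.38 to 1.46) and 1.88 (1.85 to 1.91) against 2.05 (2.01 to 2.08) and 2.39 (2.37 to 2.42). Such an adjacent bin was found at 270 low-Gata2 regions, or 13.7% (12.2 to 15.3), and was a three-factor bin at 117. At three-factor regions it was found at 464, or 11.5% (10.5 to 12.5). As adjacent bins of the same set were joined, it could not be a three-factor bin there. The 2 sets thus lost unlike neighbours, and the part of this in the turned order was not tested. Across low-Gata2 regions, rho between the tags beside the region was 0.627 for Ldb1 and Tal1, 0.454 for Ldb1 and Gata2, 0.511 for Tal1 and Gata2 and 0.0374 for Gata2 and IgG (n = 1972 regions that share the 4 libraries).

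Ldb1 and Tal1 had their summits at nearly the same place. Summits were searched in the region and 500 bp beyond it on each side. The rule asks for many tags of both libraries in the same bin, so short distances follow in part from the choice of regions. The distance to be met without a shared site was not computed. The median distance was 24 bp (22 to 25), with the middle 50% of regions between 10 and 49 bp. In 1507 regions, or 76.4%, the summits were within 50 bp, and in 128 they were over 200 bp apart. In three-factor regions the median was 38 bp (36 to 40), with 57.6% within 50 bp and 16.6% over 200 bp. Regions past the same Ldb1, Tal1 and IgG limits with 5 to 9 Gata2 tags had a median of 27 bp (26 to 29), close to that of the low-Gata2 regions. The interval of the low-Gata2 median lies below both others, by 1 bp from that of the set with 5 to 9 tags, and these intervals treat regions as independent.

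Summits are placed less exactly where tags are few, and the comparison was repeated at like numbers of tags. With 14 to 19 Tal1 tags the median was 32 bp (27 to 36) in low-Gata2 and 115 bp (100 to 133) in three-factor regions. With 20 to 29 tags it was 27 bp (23 to 31) and 66 bp (62 to 73), and with 30 to 49 tags 22 bp (20 to 25) and 36 bp (32 to 40). With 50 and over the medians were 19 bp (17 to 22) and 18 bp (17 to 19), whose intervals overlap. The medians of these 2 sets thus differed beyond their intervals in the 3 classes with fewer than 50 Tal1 tags. Regions with 5 to 9 Gata2 tags had 66 bp (58 to 78) at 14 to 19 Tal1 tags and 37 bp (32 to 41) at 20 to 29, above the low-Gata2 regions. At 30 to 49 they had 24 bp (22 to 27) and at 50 and over 17 bp (16 to 19), where their intervals overlap those of the low-Gata2 regions.

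Ldb1 was held as well only in the classes given next, and the difference between the medians remained in the lower one. With 8 to 9 Ldb1 and 14 to 19 Tal1 tags the medians were 34 bp (27 to 46, n = 196 regions) and 114.5 bp (96 to 146, n = 354 regions). With 10 to 14 Ldb1 and 30 to 49 Tal1 tags they were 25 bp (21 to 30) and 31 bp (27 to 39), with intervals that overlap. Where the centre lay at least 125 bp from an edge the medians were 24 bp (22 to 27) and 37 bp (35 to 40). The Gata2 summit of the low-Gata2 regions lay a median of 172 bp (155 to 196) from that of Tal1, against 47 bp (45 to 50) in three-factor regions. Few tags leave such a summit poorly placed. Summed over the low-Gata2 regions, Gata2 density was highest at the centre, with 2.54 times the flanks within 100 bp and 1.23 times at 300 to 500 bp. These sums include tags outside the chosen bins.

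**Figure D5:**
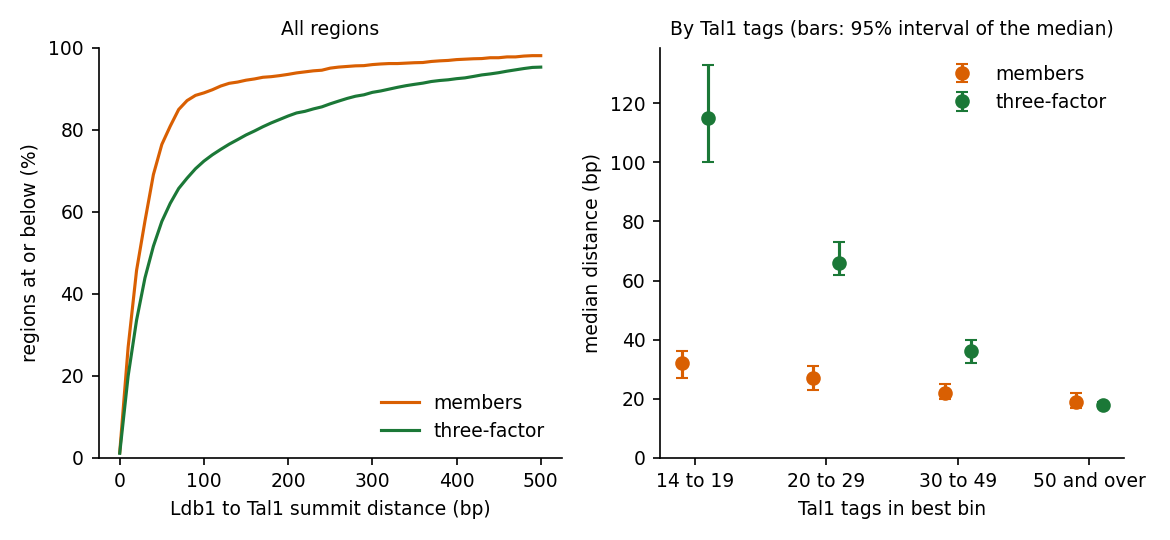
Left, the share of regions (vertical axis, percent) with Ldb1 and Tal1 summits at or below a distance (horizontal axis, bp), for low-Gata2 and three-factor regions. Right, the median distance with its 95% interval by the number of Tal1 tags in the best bin; it is 32 against 115 bp at 14 to 19 tags and 19 against 18 bp at 50 and over.

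Being low in Gata2 did not mean lying far from Gata2. Another bin with at least 10 Gata2 tags and at most 3 IgG tags was within 10 kb of 890 of the 1972 regions, or 45.1% (42.9 to 47.4), against 11.6% of all bins with a tag. The nearest lay at a median of 12.5 kb, with the middle 50% of regions between 3.5 and 36.1 kb, and within 50 kb of 80.6% (78.8 to 82.4). In three-factor regions the share within 10 kb was 55.9% (54.4 to 57.4), 10.8 percentage points higher (8.09 to 13.4). Against Tal1 regions low in both other factors, at 43.6% (41.8 to 45.4), the difference was 1.54 points, with an interval from -1.27 to 4.36 that includes 0. Bins that touch a region were counted in these shares. Such a bin had at least 10 Gata2 tags, at any IgG count, at 24.1% (22.8 to 25.4) of three-factor regions. At low-Gata2 regions this was 9.33% (8.08 to 10.7). The part of touching bins in the difference of 10.8 points was not tested.

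The share near Gata2 was similar over the members. It was 38.3% (29.4 to 47.8) at regions with 0 Gata2 tags, 46.1% (40.5 to 51.7) at 1 and 47.3% (43.1 to 51.5) at 4, with intervals that overlap. By Tal1 it was 49.1% (43.8 to 54.5) at 14 to 19 tags and 43.5% (39.2 to 47.9) at 50 and over, where three-factor regions had 54.3% (50.8 to 57.7) and 55.03% (52.4 to 57.7). The difference was widest at 30 to 49 Tal1 tags, at 42.97% (39.1 to 46.9) against 59.2% (55.7 to 62.6), and at 14 to 19 tags the intervals overlapped. A three-factor region lay within 10 kb of 474 low-Gata2 regions, or 24.0% (22.2 to 26.0), and another low-Gata2 region within 10 kb of 285, or 14.5% (12.9 to 16.1). The nearest other low-Gata2 region was a median of 117 kb away. Of the three-factor regions, 18.2% (17.1 to 19.5) had another three-factor region within 10 kb. The share over all bins was not computed for this neighbour. Adjacent three-factor bins were joined, so no three-factor region can touch another. A three-factor bin did touch 117 low-Gata2 regions, or 5.93% (4.93 to 7.07), so the shares of 18.2% and 24.0% are not on equal terms.

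Regions were found on all 19 autosomes. By length they were densest on chromosomes 19 (14.5 per 10 Mb) and 11 (14.04) and sparsest on chromosomes 3 (4.75) and 1 (5.43). Chromosome 2 held the most, 178, and chromosome 11 held 171. The bins past the Ldb1, Tal1 and IgG limits were unevenly spread in the same way, and the share of them that was low in Gata2 stayed between 19.5% (15.7 to 23.8) on chromosome 3 and 26.1% (21.2 to 31.5) on chromosome 14, both intervals including the 22.5% of all autosomes. Density by chromosome thus went with where Ldb1 and Tal1 were, and no chromosome had a share of low-Gata2 bins clear of the common one except chromosome 2, at 25.6% (22.5 to 28.97), whose lower bound is just above it.

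Both strands were equally represented in the Ldb1 and Tal1 tags of the regions. Forward tags made up 49.6% (49.1 to 50.2) of Ldb1 and 49.9% (49.6 to 50.2) of Tal1 tags, and within 300 bp of the centre forward and reverse tags were displaced by 119 bp for Ldb1 and 105 bp for Tal1. The centre was placed with Ldb1 and Tal1 tags moved 54 bp along their strand, which favours a displacement near this size for these libraries. Gata2 tags were displaced by 75 bp and IgG tags by 14 bp, against 95 and 35 bp in three-factor regions. The Gata2 tags that remain in the low-Gata2 regions were therefore displaced between strands more than those of IgG and less than those at three-factor regions.

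Repeated positions and mismatches did not set these regions far apart from three-factor regions. In the low-Gata2 regions 39.9% of the Ldb1 tags lay at a position already taken by another, against 33.0% over the autosomes. For Tal1 this was 26.9% against 18.4%, for Gata2 14.5% against 14.1%, and for IgG 27.5% against 30.1%. Three-factor regions had 40.5%, 32.5%, 19.4% and 25.9%. Repeats were thus more frequent than in the whole library for the 2 factors that are dense here, and near it for Gata2. Tags without a mismatch made up 95.8% of Gata2 tags in the low-Gata2 regions and 94.6% in three-factor regions. The Tal1 tags are 36 bp long and those of the other 3 libraries 25 bp.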

How the data were processed

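The authors deposited 1 list of aligned tags per library, with no header and no normalization and with repeated tags kept. Per the submitters' processing notes the positions are those of mm8. The aligner is not given in the sources used here. Ldb1 and IgG tags carry a mismatch class, and Tal1 and Gata2 tags a match descriptor and a score in the authors' files, so the file format differs between antibodies. The scores were not used. Here 1 tag was kept per position and strand, moved 54 bp along its strand and counted in 500 bp bins. The limits, the comparison sets and the regions to name (the 10 with the largest lowest value of Ldb1 over 8 and Tal1 over 14, 5 with most bins, 5 without Gata2 and most Ldb1, 3 with most Tal1 and 3 with most Ldb1 per Tal1) were chosen with earlier results of these data known. Of the 5 with most bins, those of 2 bins were picked by position only and are not described. Shares have exact binomial intervals, ratios of densities conditional binomial ones, differences of shares Newcombe intervals, ratios of 2 density ratios normal intervals on the log scale, and medians binomial ones. The counting was tested on simulated tags. Work was done in Python 3.11.15 with numpy 2.4.6, pandas 2.3.3 and scipy 1.17.1. The planned search for motifs and genes was not run, as it needs a genome and annotation of mm8.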

Additional observations from a re-analysis of the deposited data

How the results depend on the processing

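No paired analysis was possible because each antibody has 1 library. Leaving out a replicate was not possible for the same reason. In every setting tried, Gata2 beside the regions stayed above its flanks and below its value at three-factor regions. Each setting split the 2 sets by Gata2 tags in the adjoining bin, so the order of the sets follows in part from the rule. The number of regions, 1972, was 3494 with every deposited tag counted, 917 with at most 2 Gata2 tags, 3041 with at most 6, 879 with at least 12 Ldb1 and 20 Tal1 tags, 1003 with 1 to 3 IgG tags, and 1050 with the centre at least 125 bp from an edge. It was between 1588 and 1976 in the other 6 settings that alter the set, but with bins from position 250 only 58.4% of the regions overlapped one of the new ones. This last limit on the centre, and leaving out regions beside another bin past the Ldb1, Tal1 and IgG limits, were chosen after seeing the data.

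Gata2 beside the regions, 1.52 times the flanks, was 1.61 with tags not moved, 1.39 with at most 2 Gata2 tags, 1.71 with at most 6, 1.43 with the higher Ldb1 and Tal1 minimum, 1.47 with limits as multiples of the library mean, 1.59 with flanks at 5 to 10 kb, 1.21 without regions beside such a bin and 1.23 with the centre away from an edge. The ratio of three-factor to low-Gata2 regions, 1.68, was in the same order 1.64, 1.84, 1.497, 1.77 and 1.77, and 2.13 and 1.97 in the last 2. The value of 2.13 follows in part from how the sets were built: as adjacent member bins were joined, leaving out regions beside another bin past the limits removes bins with at least 5 Gata2 tags from beside low-Gata2 regions and bins with at most 9 from beside three-factor regions. It was 1.55 with every deposited tag, 1.94 with 1 to 3 IgG tags and 1.81 with at least 14 Gata2 tags in three-factor regions.

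The share over the Gata2 limit after recentring, 21.5%, was 25.9% with tags not moved, 23.8% with bins from position 250, 24.0% with every tag, 30.9% with at most 2 Gata2 tags, 13.9% without regions beside such a bin and 8.10% with the centre away from an edge. The share with a Gata2 bin within 10 kb, 45.1%, was 53.1% with every tag, 41.8% without mismatches, 42.1% with the higher minimum, 31.2% with 1 to 3 IgG tags (asked of the Gata2 bin too), 39.6% with multiples of the mean, 26.5% for bins of at least 14 Gata2 tags, 80.6% within 50 kb and 41.5% without regions beside such a bin. The median summit distance, 24 bp, was 52 bp with tags not moved, 33 bp with every tag and 19 bp with the higher minimum, and 23 to 25 bp in the other 9 settings. The share of regions of 1 bin, 94.1%, was 91.5% with tags not moved, 96.4% and 92.9% with at most 2 and 6 Gata2 tags, 96.02% with the higher minimum, 97.3% with 1 to 3 IgG tags and 89.5% with the centre away from an edge. Where not named, the cause was not tested. At this depth 0 tags in a bin allow up to 3.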

Other observations

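Chromosome X was outside the rule. With the same limits it had 39 bins in 37 regions, out of 97 bins past the Ldb1, Tal1 and IgG limits, so 40.2% (30.4 to 50.7) of these were low in Gata2, against 22.5% on the autosomes. Tag density on chromosome X was 0.703 times that of the autosomes for Gata2, 0.732 for Ldb1, 0.667 for Tal1 and 0.932 in the IgG library, while the limits were the same; the part of this in the higher share was not tested.

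The stretch of 1 Mb with most low-Gata2 regions, chosen after the values were seen, lay on chromosome 10 from 79000001 to 80000000. It held 14 of them and 23 three-factor regions. The next 1 Mb held 8 and 22. A stretch of chromosome 8 from 73000001 to 74000000 held 10 and 13, and 1 of chromosome 8 from 108000001 to 109000000 held 9 and 8. Of all 1 Mb stretches with a low-Gata2 region, 460 held a single one, 202 held 2, 126 held 3, 75 held 4 and the rest held 5 or more.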
